A study of Homo sapiens with 9 samples.

Results

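The response of γH2AX to PMA was compared between FANCL-knockout (KO) and wild-type (WT) K562 cells, as the change from mock to PMA in KO minus the change from mock to PMA in WT. K562 is an established human myelogenous leukaemia line, and γH2AX is the phosphorylated form of the histone H2AX. All 8 γH2AX chromatin immunoprecipitation libraries of the series were used, 2 from each of 4 groups: WT mock, WT PMA (5 nM for 72 h), KO mock and KO PMA (the same dose and time). The ninth sample is an input library from WT mock cells, against which the authors called every region list. The labels do not say that the replicates of a group came from separate cultures, or whether the KO cells were 1 clone, and a p-value here reflects no more than the scatter among these libraries, part of which may be technical. FANCL itself is not measured by the region lists, so the genotype rests on the labels. Chromosomes 1 to 22 were divided into 28808 bins of 100 kb, and the value of a bin is the log2 of its covered base pairs (those inside called regions) plus 1000. Of these bins, 16805 were covered in no library and 2529 in 1 library, and the 9474 covered in at least 2 of the 8 libraries were tested. All coordinates are on hg19, as in the deposited files.

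γH2AX spreads over long stretches of chromatin on both sides of a DNA double-strand break and also accumulates at stalled replication forks. FANCL is the ubiquitin ligase subunit of the Fanconi anaemia core complex, which marks its substrate proteins at crosslinked DNA so that repair can proceed. PMA is a phorbol ester that activates protein kinase C, stops the division of K562 cells and drives them towards the megakaryocyte lineage.

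Depth ran from 15.6 to 27.2 M tags per library, and each library had a tag threshold of its own, from 5.89 to 7.69 tags per 10 M in a window of 500 bp. Between 1.39% and 7.96% of the tags lay inside regions, with the lowest shares in WT mock and the highest in KO PMA. The file headers give this share as an estimate of how efficient the immunoprecipitation was, and more γH2AX cannot be told apart from a more efficient immunoprecipitation in any comparison here. The single input came from WT mock cells, and any change of copy number in the other 3 groups is not corrected for.

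Over whole libraries, covered length was greater after PMA in both genotypes, by a smaller factor in KO than in WT. On chromosomes 1 to 22 it was 9.61 and 8.17 Mb in WT mock, 31.3 and 24.8 Mb in WT PMA, 17.2 Mb in each KO mock library, and 42.3 and 34.3 Mb in KO PMA. Neither genotype's mock and PMA libraries overlapped. The mean was 2.22-fold higher after PMA in KO and 3.14-fold higher in WT, a difference of −0.50 on the log2 scale (exact permutation p = 0.444, two-sided, genotype shuffled within each treatment over 36 labellings, smallest possible p = 0.0556). This shuffling also swaps KO and WT libraries in mock, where KO (17.2 Mb in each) already lay above WT (9.61 and 8.17 Mb). The p-value therefore does not isolate a difference between the PMA responses. In added length the order of the genotypes was the other way, at 21.1 Mb in KO and 19.1 Mb in WT. The log2 difference turned to 0.47 with the same number of regions taken from each library and to 0.16 with regions of at least 1000 bp.

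Among the 9474 tested bins, 347 had a higher PMA response in KO than in WT (3.66%) and 1202 a lower one (12.7%; limma, adjusted p under 0.05), together 1549 bins (16.4%). Taken alone, the response passed upwards in 1242 bins (13.1%) and downwards in 508 (5.36%) in KO, and upwards in 3069 (32.4%) and downwards in 223 (2.35%) in WT. A higher value arose in several ways. In 216 of the 347 bins coverage rose in KO and the WT response did not pass, in 91 it fell in WT and the KO response did not pass, in 21 it rose in both, in 9 it rose in KO and fell in WT, in 7 it fell in both, and in 3 neither response passed on its own. Of the 1202 lower bins, 843 rose in WT with no passing response in KO, 297 fell in KO with none in WT, 28 rose in both and 26 rose in WT and fell in KO. The median tested bin differed by −0.55, and by 0.12 with each library centred on its median bin, −0.06 with equal numbers of regions and −0.06 with regions of at least 1000 bp. The balance of higher and lower bins depended on the scaling: with centred libraries there were 770 higher and 197 lower bins, of which 344 and 193 were among the same 347 and 1202. Of the called bins, 468 never held more than 1 kb in any library, that is 1 or 2 windows, so that replicates could hold equal lengths with no spread between them. Without KO PMA replicate 1 the numbers fell to 179 higher and 696 lower, without KO PMA replicate 2 to 215 and 642, without WT mock replicate 1 to 231 and 745, and without WT mock replicate 2 to 213 and 610. Without KO mock replicate 1 the higher bins fell to 218.

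**Figure D1:**
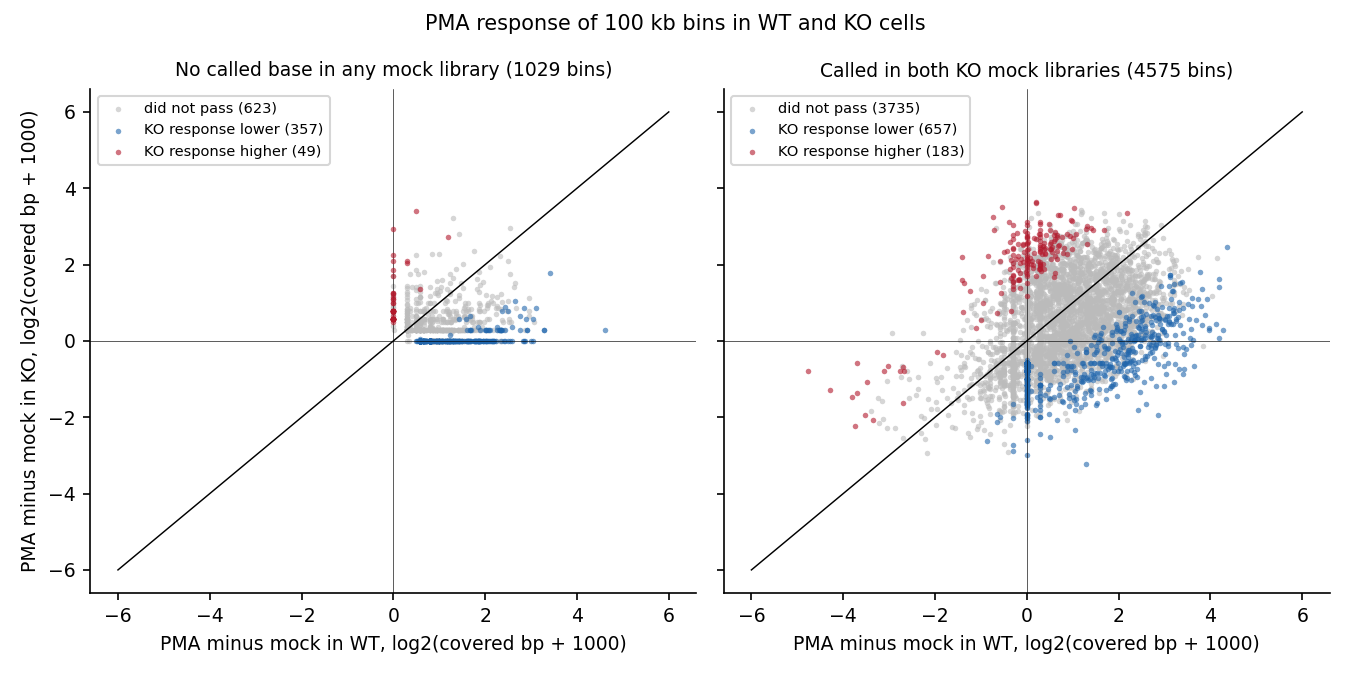
PMA response (PMA minus mock, log2(covered bp + 1000)) of each 100 kb bin in WT cells on the x axis and in KO cells on the y axis, for bins with no called base in any mock library and bins called in both KO mock libraries. Points on the diagonal responded alike, red points (49 and 183 bins) had a higher response in KO and blue points (357 and 657 bins) a lower one.

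Bins with no called base in any of the 4 mock libraries acquired γH2AX mainly in WT cells, in the libraries as called. There were 1029 such bins, 10.9% of those tested, and they had passed the filter through PMA libraries alone. Together they held 1.71 and 1.14 Mb in the WT PMA libraries, against 0.468 and 0.409 Mb in KO PMA. Both WT PMA libraries lay above both KO PMA libraries. This was 5.47% and 4.62% of the covered length of the WT PMA libraries and 1.11% and 1.19% of that of the KO PMA libraries. In this class 49 bins had a higher and 357 a lower response in KO, or 4.76% and 34.7% beside 3.66% and 12.7% of all tested bins. Since the mock terms are 0 bp here, the difference of responses is the difference between the genotypes under PMA, and the class shares its libraries with the test, so these shares are descriptions. Of the lower bins, 352 rose in WT with no passing response in KO, and 5 rose in both. In 194 of the 357 lower and 33 of the 49 higher bins no library held more than 1 kb, while 20 lower and 3 higher bins held a mean of at least 5 kb in some group. With each library centred on its median bin, 67 bins of this class were higher and 14 lower. The WT PMA libraries had the lower tag thresholds, 5.89 and 7.07 tags per 10 M against 7.12 and 7.50 in KO PMA, and with 1 threshold for all libraries the class had 76 higher and 199 lower bins. Without WT mock replicate 2 the class held 32 higher and 229 lower bins. In these last 2 settings the members of the class were set anew.

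The largest gains in KO PMA from no mock coverage lay on chromosome 22. The named bins of this class were covered in 2 or 3 libraries and passed the filter through the PMA group in which they were high, so their differences are descriptions and carry no p-value here. None of them had a value when coverage in at least 4 libraries was asked for. The bin from 39600001 to 39700000 held 8.26 and 5.32 kb in KO PMA and was listed at 0 in the other 6 libraries (difference 2.94). It was made of 12 and 10 short regions, and one called in both replicates lay from 39673172 to 39673672 in replicate 1 (6.11-fold over input, as the authors give it) and from 39672824 to 39673324 in replicate 2 (12.8-fold). The bin from 26900001 to 27000000 on the same chromosome held 9.73 and 9.47 kb in the KO PMA libraries and 1.0 kb in WT PMA replicate 1, with nothing elsewhere (difference 2.91), and it lost the call without either WT mock, either KO mock or either KO PMA library. Bins of this class held nothing in mock, so leaving out a mock library left each difference unchanged. Calls kept or lost in that way, here and below, speak only to the error of the fit and the number of libraries.

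Smaller gains in KO PMA alone were found on chromosomes 3, 14, 4 and 17. On chromosome 3 the bin from 128200001 to 128300000 held 4.27 and 2.50 kb (difference 2.10), and on chromosome 14 that from 103800001 to 103900000 held 2.33 and 3.0 kb (1.87); both were listed at 0 in the other 6 libraries. The chromosome 14 bin had a region in both replicates at 15.3- and 12.8-fold over input, from 103896597 to 103897097 in replicate 1. On chromosome 4 the bin from 83800001 to 83900000 held 2.50 and 4.23 kb (1.80), and on chromosome 17 that from 17500001 to 17600000 held 3.83 and 2.53 kb (1.75), each with 0.5 kb in 1 WT PMA library. With 1 tag threshold for all libraries the calls ended for these 4 bins, and the last 2 also lost it with the replicate number as a block. The bin on chromosome 3 lost its call without WT mock replicate 2. The bins on chromosomes 4 and 17 each lost it without any 1 of the 4 mock libraries, the former also without WT PMA replicate 2 or KO PMA replicate 2, and the latter without WT PMA replicate 1 or KO PMA replicate 1. None of the 6 bins was called under all 3 rescalings (centred libraries, 1 tag threshold, equal numbers of regions).

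The named gains in WT PMA reached greater lengths. On chromosome 1 the 100 kb from 55600001 had 28.2 and 19.2 kb of coverage in WT PMA, 0.5 kb in KO PMA replicate 2 and nothing in the other 5 libraries, a difference of −4.31. This coverage came as 24 and 19 separate regions, among them one shared by both replicates, from 55667503 to 55669073 in replicate 1 at 7.11-fold and from 55667545 to 55668045 in replicate 2 at 5.48-fold. Its call ended when regions had to be at least 6-fold enriched. On chromosome 7 coverage from 43600001 to 43700000 was 8.56 and 4.64 kb in WT PMA and 0 elsewhere (difference −2.88).

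A further 4 bins of this kind lay on chromosomes 4, 7 and 3. They were the bins from 48200001 to 48300000 on chromosome 4 (11.0 and 4.66 kb in WT PMA), from 16700001 to 16800000 on chromosome 7 (10.8 and 4.38 kb), and from 141200001 to 141300000 (10.9 and 6.89 kb) and 172400001 to 172500000 (7.28 and 5.32 kb) on chromosome 3. KO PMA held 0.5 kb in 1 library of the third bin and was otherwise listed at 0. The differences lay between −3.04 and −2.85. The last of them had a region called at 6.84- and 15.3-fold over input, from 172471640 to 172472140 in replicate 1. The bins on chromosomes 4 and 7 lost the call without either library of WT mock, KO mock or KO PMA, and the bin at 141200001 without WT mock replicate 2.

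**Figure D2:**
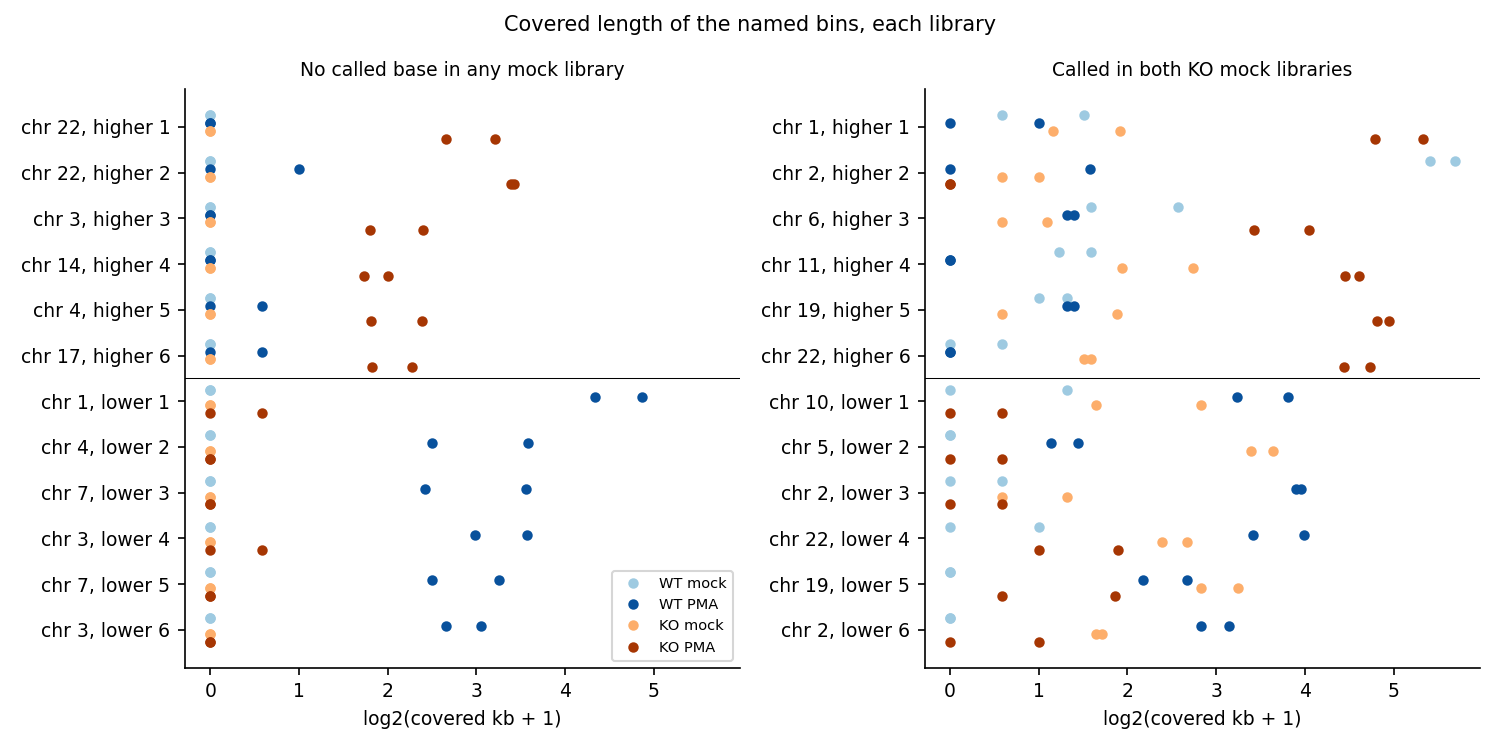
Covered length of the 12 largest differences in each of the 2 classes, as log2(covered kb + 1), with 1 point per library and the bins in the order of the text (higher or lower response in KO, by size). Among bins with no mock coverage the dark orange points of KO PMA stand alone to the right for higher bins, and the dark blue points of WT PMA, up to 28.2 kb, for lower bins.

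Where γH2AX was already called in KO mock cells, the called bins included both expansions and losses in KO. In all, 4575 tested bins were called in both KO mock libraries, 1297 of them without and 3278 with a call in WT mock. They held 92.1% and 93.2% of the covered length of the KO mock libraries and 90.9% and 90.6% of that of the KO PMA libraries, so that covered length after PMA lay mostly where bins were covered before it. In WT the same quantity, the share of PMA coverage in bins called in both mock libraries of the genotype, was 58.1% and 59.99%. Those WT bins numbered 3020, fewer than the 4575 in KO. Bins called in neither mock library of the genotype held 2.95% and 3.28% of KO PMA and 15.1% and 14.7% of WT PMA coverage. Both KO libraries lay apart from both WT libraries in each of these shares.

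Among the 4575 bins, 183 had a higher and 657 a lower response in KO (4.0% and 14.4%, beside 3.66% and 12.7% of all tested bins). The bins were chosen for coverage in KO mock, which enters the difference, so that these counts describe the class and are no test of it. With classes taken from mock replicate 1 and differences from replicate 2 of each group, the median difference was −0.58, as it was with all libraries. The median was −0.24 with equal numbers of regions, −0.15 with 5000 bp added in place of 1000 bp, and −1.52 with 100 bp added, and it turned to 0.53 with only regions of 1000 bp or more. Here and below, the members of the class were set anew wherever regions or libraries were left out. The 183 higher bins comprised 137 that rose in KO with no passing response in WT, 17 that rose in both, 7 that rose in KO and fell in WT, 13 that fell in WT alone, 7 that fell in both and 2 in which neither response passed. The 657 lower bins comprised 304 that rose in WT with no passing response in KO, 297 that fell in KO with none in WT, 26 that rose in WT and fell in KO, 22 that rose in both, 7 in which neither passed and 1 that fell in both. Bins without WT mock coverage had 37 higher and 368 lower calls (2.85% and 28.4%), 199 of the latter with at most 1 kb in any library. Bins with it had 146 and 289 (4.45% and 8.82%). WT mock coverage, which sets this split, also enters the difference. Counted in kb rather than on the log scale, the class as a whole gained 8.24 Mb more in KO than in WT, although 60.1% of its bins gained less. With centred libraries the class had 446 higher and 147 lower bins, and with the 6-fold minimum on regions 13 and 160. The higher bins fell to between 54 and 115 without each library in turn except WT PMA replicate 2 (167), and the lower bins fell to 387 and 349 without KO PMA replicates 1 and 2, 418 without WT PMA replicate 1, and 407 and 349 without WT mock replicates 1 and 2.

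**Figure D3:**
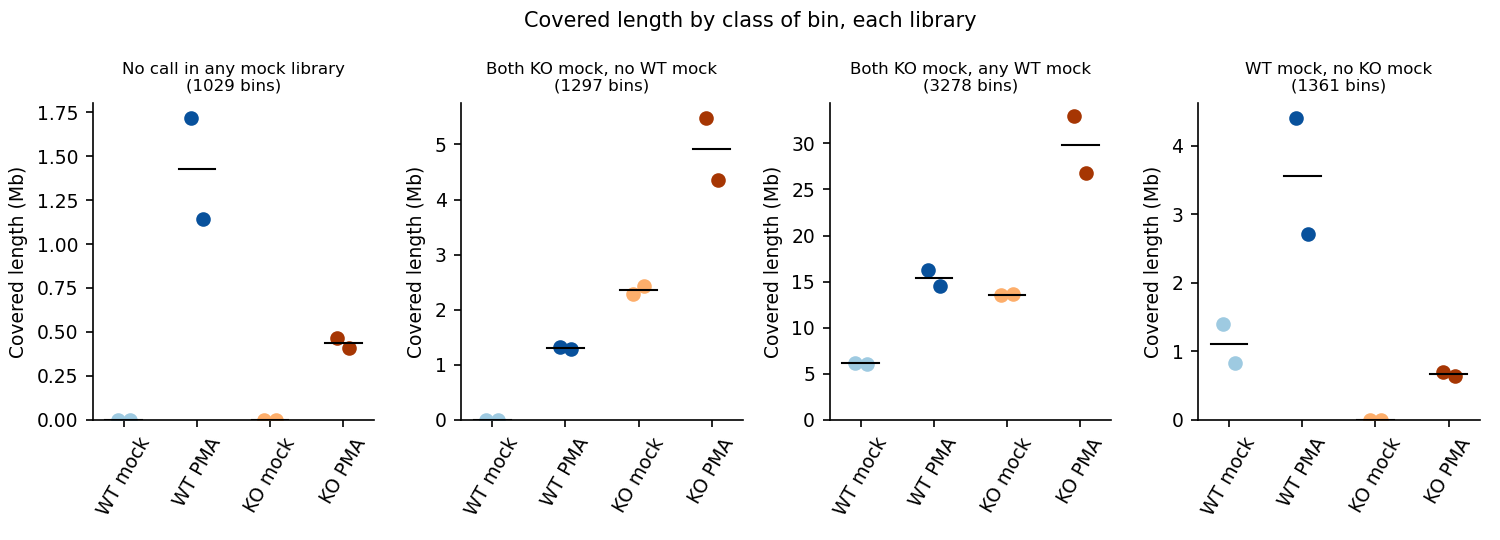
Covered length in Mb of each library (points; horizontal lines are group means, n = 2) summed over 4 classes of tested bins set by their mock coverage. WT PMA exceeds KO PMA in bins without KO mock coverage, for instance 1.71 and 1.14 against 0.468 and 0.409 Mb in bins with no mock call, and KO PMA exceeds WT PMA in bins called in both KO mock libraries.

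In 5 of the 6 largest higher responses of this class coverage rose in KO, and in the other it fell in WT. On chromosome 1 coverage from 155000001 to 155100000 was 1.23 and 2.78 kb in KO mock, 39.3 and 26.6 kb in KO PMA, and between 0 and 1.85 kb in the 4 WT libraries, a difference of 4.07 (SE 0.74, limma adjusted p = 0.0250). A region called in both KO PMA libraries ran from 155037663 to 155041119 in replicate 2, at 4.65-fold over input. On chromosome 19 the 100 kb from 47600001 rose from 2.69 and 0.5 kb to 29.96 and 27.1 kb in KO, while the 4 WT libraries held 1.0 to 1.63 kb (difference 3.45). The bin from 64100001 to 64200000 of chromosome 11 rose from 2.84 and 5.65 kb to 23.3 and 20.9 kb in KO, and in WT it held 1.35 and 2.0 kb in mock and 0 in both PMA libraries (difference 3.6, SE 0.43, limma adjusted p = 0.00689). That bin kept its call without each library in turn and under the 3 rescalings, but among regions enriched 6-fold or more its difference was −0.62.

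The chromosome 22 bin from 38000001 to 38100000 rose from 1.85 and 2.0 kb to 25.5 and 20.7 kb in KO, and in WT only 1 mock library held any coverage, 0.5 kb (difference 3.33, SE 0.36, limma adjusted p = 0.00449), a call that ended with equal numbers of regions. The chromosome 6 bin from 26300001 to 26400000 rose from 0.5 and 1.14 kb to 15.6 and 9.79 kb in KO, beside 4.92 and 2.0 kb in WT mock and 1.63 and 1.5 kb in WT PMA (difference 3.62). The sixth bin, at the start of chromosome 2 from 1 to 100000, had a difference of 3.97 that came from WT: coverage there was 50.5 and 41.7 kb in WT mock, 2.0 kb and 0 in WT PMA, 1.0 and 0.5 kb in KO mock, and 0 in KO PMA. The bin on chromosome 1 lost its call with the replicate number as a block (limma adjusted p = 0.0513) and without any library except WT mock replicate 1 and WT PMA replicate 1, that on chromosome 2 without any except the WT PMA libraries, and that on chromosome 19 without any except the KO mock libraries. The chromosome 6 bin lost it without either WT PMA library, KO mock replicate 1 or KO PMA replicate 1. Among regions at least 6-fold over input, the bins on chromosomes 2, 6 and 19 also lost their calls, with differences of 1.98, 0.77 and 0.55. In that setting the bin on chromosome 22 kept its call (1.98) and that on chromosome 1 had no value.

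In all 6 of the largest lower responses of this class the WT response passed upwards. Mean coverage in KO was lower after PMA in all 6, and in 1 of them the KO response passed downwards. On chromosome 10 the bin from 11300001 to 11400000 rose in WT from 0 and 1.5 to 13.1 and 8.42 kb and went in KO from 6.08 and 2.14 to 0.5 kb and 0, a difference of −4.81 (SE 0.87, limma adjusted p = 0.0246) that lost its call without any library except WT mock replicate 2 and KO mock replicate 2. On chromosome 5 the bin from 1600001 to 1700000 fell in KO from 11.4 and 9.53 kb to 0 and 0.5 kb while WT rose from 0 in both libraries to 1.20 and 1.71 kb (difference −4.51, SE 0.38, limma adjusted p = 0.00325). Its KO mock coverage was made of 13 and 11 regions, among them one from 1669544 to 1670044 in replicate 1 at 3.91-fold over input. On chromosome 22 the bin from 17500001 to 17600000 rose in WT from 1.0 kb and 0 to 14.95 and 9.69 kb and went from 5.37 and 4.23 to 1.0 and 2.72 kb in KO (difference −4.29).

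The other 3 bins lay on chromosomes 2 and 19. The bin from 9000001 to 9100000 on chromosome 2 rose in WT from 0.5 kb and 0 to 13.9 and 14.5 kb, and in KO it held 1.5 and 0.5 kb in mock and 0.5 kb and 0 in PMA (difference −4.29, SE 0.53, limma adjusted p = 0.00791). The bin from 106400001 to 106500000 rose in WT from 0 in both libraries to 6.11 and 7.83 kb and went in KO from 2.13 and 2.29 to 1.0 kb and 0 (difference −4.17). A region there stood at 12.99- and 28.5-fold over input in WT PMA, from 106426555 to 106427181 in replicate 1. The bin from 36600001 to 36700000 on chromosome 19 rose in WT from 0 in both to 5.39 and 3.51 kb and went in KO from 6.08 and 8.47 to 2.63 and 0.5 kb (difference −4.23). The bins on chromosome 5 and at 9000001 on chromosome 2 kept their calls without each library in turn and under the 3 rescalings, and that on chromosome 22 under the rescalings. All 3 lost the call with regions of at least 6-fold, and the bins at 9000001 and on chromosome 22 also with 100 bp added in place of 1000 bp. The bin on chromosome 22 lost its call without WT PMA replicate 1, either KO mock library or KO PMA replicate 1, and that on chromosome 19 without either WT mock library, WT PMA replicate 1 or KO mock replicate 2.

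Part of the called bins lay next to one another. Of the 347 higher bins, 129 (37.2%) lay beside another higher bin, and of the 1202 lower bins 380 (31.6%) beside another lower one, with a longest run of 7 bins in each direction. Neighbouring bins share regions that cross their border and are not independent. How often tested bins of any kind lie side by side was not worked out, so these shares are descriptions. The run of 7 higher bins, on chromosome 3 from 1 to 700000, was a loss in WT. Coverage there went from 104 and 97.8 kb in WT mock to 1.92 kb and 0 in WT PMA, with at most 0.5 kb in any KO library. On chromosome 11 from 134600001 to 135000000, 4 higher bins went in WT from 103 and 88.5 to 1.0 and 2.29 kb. The longest run of KO expansion was on chromosome 19 from 49000001 to 49600000, where 6 neighbouring bins held 32.5 and 32.4 kb in KO mock and 272 and 251 kb in KO PMA. In WT they held 1.5 and 0.5 kb in mock and 2.22 and 2.66 kb after PMA. The differences of its bins lay between 2.12 and 3.4, and 5 of the 6 were called under the 3 rescalings. Runs of 4 bins with the same pattern lay on chromosome 19 from 49700001 to 50100000 (18.2 and 19.7 kb in KO mock, 128 and 116 kb after PMA), on chromosome 11 from 64800001 to 65200000 (32.0 and 34.0 kb, 209 and 182 kb), on chromosome 12 from 53600001 to 54000000 (12.3 and 11.9 kb, 107 and 88.2 kb) and on chromosome 22 from 38000001 to 38400000 (5.0 kb in each KO mock library, 65.4 and 47.5 kb). None of these 4 runs held more than 7.02 kb in any WT library. Under the 3 rescalings 2, 1, 0 and 1 of their bins were called, in that order. A further run of 4 bins with this pattern lay on chromosome 22 from 41700001 to 42100000. It held 7.15 and 8.69 kb in KO mock and 65.3 and 55.3 kb after PMA, and 1 of its bins was called under the rescalings. These runs and the windows and zones below were singled out after their values were seen.

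Among runs of lower bins, coverage was smaller in KO after PMA on chromosome 2 from 2500001 to 3200000, where 7 bins went from 36.4 and 36.6 kb in KO mock to 3.5 and 1.64 kb in KO PMA, and the WT libraries held 0.5 kb or nothing. On chromosome 5 from 1300001 to 1700000 KO went from 56.6 and 51.1 to 11.9 and 10.5 kb while WT went from 5.17 and 7.32 to 14.6 and 16.1 kb. On chromosome 11 from 34900001 to 35300000 the difference lay in a WT gain, from 0 and 0.5 to 19.4 and 15.4 kb, with at most 1.0 kb in any KO library. Of the 7 bins on chromosome 2, 1 was called under the 3 rescalings, as was 1 of the 4 on chromosome 5 and none on chromosome 11 at this position.

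Chromosomes 19 and 22 held opposite responses at different places. The counts of bins given for them stand beside 3.66% higher and 12.7% lower among all tested bins. On chromosome 19 the first 5 Mb went in KO from 465 and 590 kb to 1832 and 1571 kb, and in WT from 23.6 and 45.6 to 20.9 and 51.2 kb, with 9 higher and no lower bins of 50 tested. Between 45 and 50 Mb, KO went from 241 and 222 to 1374 and 1185 kb and WT from 13.1 and 14.8 to 42.5 and 54.5 kb, with 15 higher and no lower bins of 49. Between 30 and 35 Mb of the same chromosome, KO went from 38.3 and 45.4 to 30.8 and 33.3 kb, WT went from 7.13 and 2.5 to 46.0 and 51.9 kb, and 10 of 23 bins were lower and none higher.

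On chromosome 22 the stretch from 15 to 25 Mb, which holds most of the coverage of that chromosome in KO mock, went in KO from 792 and 833 to 897 and 830 kb, and these groups overlapped. In WT it went from 149 kb in each mock library to 368 and 432 kb, and 17 of 70 bins were lower and 1 higher. From 35 to 45 Mb, KO went from 60.8 and 60.7 to 385 and 294 kb (5.59-fold) and WT from 3.13 and 2.14 to 12.98 and 20.7 kb (6.40-fold). There 19 of 62 bins were higher and 3 lower, beside 3.66% and 12.7% of all tested bins. The fold over the whole stretch was nonetheless no greater in KO. The 1000 bp added to each bin makes the log2 change of little-covered bins smaller than the fold of their sum.

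In shares of a library's covered length, which do not move with its total, 6 of 22 chromosomes responded differently: 2 had a higher response in KO (9.09%) and 4 a lower one (18.2%; limma, adjusted p under 0.05). The share of chromosome 17 fell in WT from 4.05% and 5.31% to 3.16% and 3.76% and rose in KO from 6.94% and 7.11% to 9.12% and 8.89% (difference 0.79, SE 0.19, limma adjusted p = 0.0155). Chromosome 11 went from 4.78% and 5.31% to 4.47% and 4.41% in WT and from 6.20% and 6.08% to 7.43% and 7.50% in KO (0.46, SE 0.12, limma adjusted p = 0.0155). In covered length rather than share, chromosome 11 differed by −0.04 and chromosome 17 by 0.28, and neither passed. For both, the call also ended with 1 tag threshold and without either KO mock library, and for chromosome 11 also at 6-fold over input and without either KO PMA library.

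Chromosome 2 rose in share in WT, from 6.11% and 5.19% to 8.48% and 7.58%, and fell in KO, from 4.64% and 4.63% to 3.29% and 3.23% (difference −1.02, SE 0.14, limma adjusted p = 0.000739). Chromosome 5 went from 6.44% and 6.21% to 7.20% and 6.53% in WT and from 4.47% and 4.30% to 2.49% and 2.52% in KO (−0.92, SE 0.12, limma adjusted p = 0.000739). The covered length of chromosomes 2 and 5 was nonetheless greater after PMA in KO, by 0.64 and 0.34 on the log2 scale. In WT it was greater by 2.16 and 1.77. Chromosomes 8 and 15 differed by −0.64 and −0.67, calls that ended without either KO mock library, without KO PMA replicate 2, with regions of at least 1000 bp, with 1 tag threshold and with equal numbers of regions. Chromosomes 2 and 5 kept their calls under every setting tried. Chromosome 19, whose KO share was 10.8% and 11.8% in mock cells and 16.6% and 17.03% after PMA, did not pass (0.74, SE 0.40, limma adjusted p = 0.180). Its WT replicates were uneven, at 1.33% and 2.44% in mock and 1.25% and 2.07% in PMA.

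**Figure D4:**
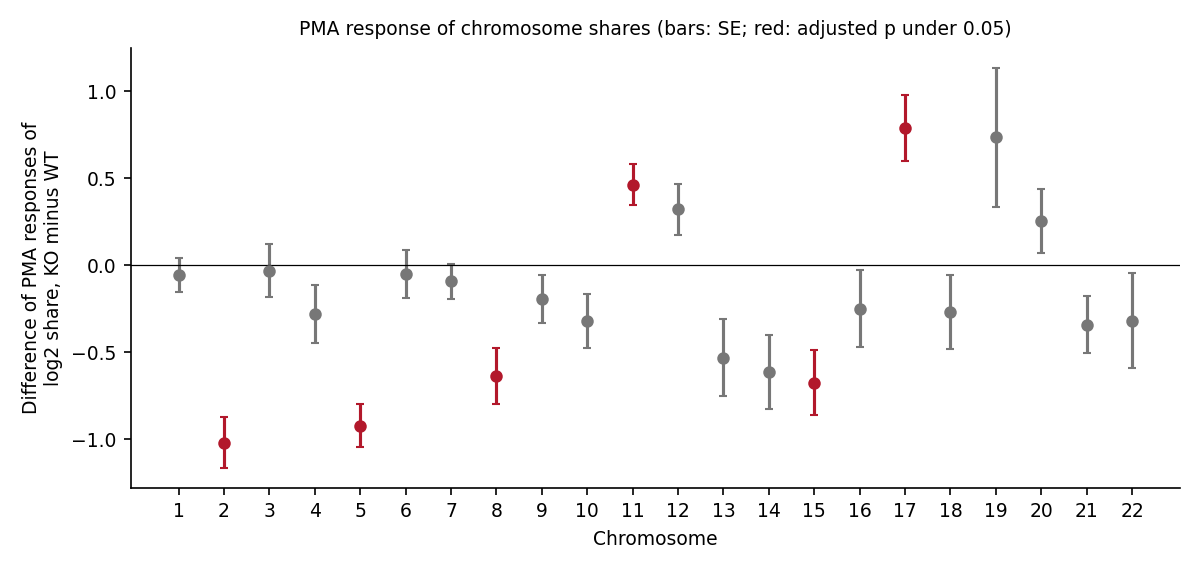
Difference of the PMA responses (KO minus WT) of the log2 share of covered length for chromosomes 1 to 22, with the standard error from limma as bars (2 libraries per group). The 6 red points passed at an adjusted p under 0.05: chromosomes 11 and 17 above 0, and chromosomes 2, 5, 8 and 15 below.

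By called bins the order of the chromosomes was a different one. Beside 3.66% higher and 12.7% lower among all tested bins, 12.8% were higher (25 of 195) and 13.3% lower (26) on chromosome 22. On chromosome 14 they were 11.0% (19 of 173) and 13.3% (23), and on chromosome 19 10.0% (38 of 379) and 6.07% (23). On chromosome 21 none of 146 bins was higher and 29 (19.9%) were lower. Of the bins with no mock coverage, chromosome 14 had 54, with 10 higher and 13 lower, and chromosome 22 had 19, with 8 higher and 2 lower. In that class as a whole 4.76% were higher and 34.7% lower. Its bins passed the filter through PMA libraries alone, so these counts are descriptions. On chromosome 21 every called bin was lower in KO, and its covered length changed by 0.92 in WT and 0.08 in KO on the log2 scale. These chromosomes were named after their counts were seen.

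Near chromosome ends the sign was turned: there coverage was lower after PMA in WT, and KO mock held less than WT mock. In the 88 tested bins under 200 kb from an end, WT cells had 1.66 and 1.56 Mb of covered length in mock and 0.653 and 0.533 Mb after PMA. In KO it was 0.288 and 0.293 Mb in mock cells and 0.386 and 0.310 Mb after PMA. The change was 0.367-fold in WT and 1.19-fold in KO, and both KO PMA libraries lay above both KO mock libraries (difference of log2 totals 1.70, exact permutation p = 0.333, genotype shuffled within each treatment). Here too the shuffling swapped KO and WT libraries in mock, where the genotypes already differed. This p-value does not isolate a difference between the PMA responses either. Of these 88 bins 30 had a higher response in KO (34.1%, beside 3.66% of all tested bins) and 1 a lower one. Among the 53 of them called in both KO mock libraries, 13 were higher (24.5%). The remaining bins could pass the filter through the WT mock libraries in which they were high, so the 34.1% is a description. From 200 kb to 1 Mb, 28 of 266 bins were higher and 14 lower, and beyond 5 Mb 257 of 8227 were higher (3.12%) and 1056 lower (12.8%).

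**Figure D5:**
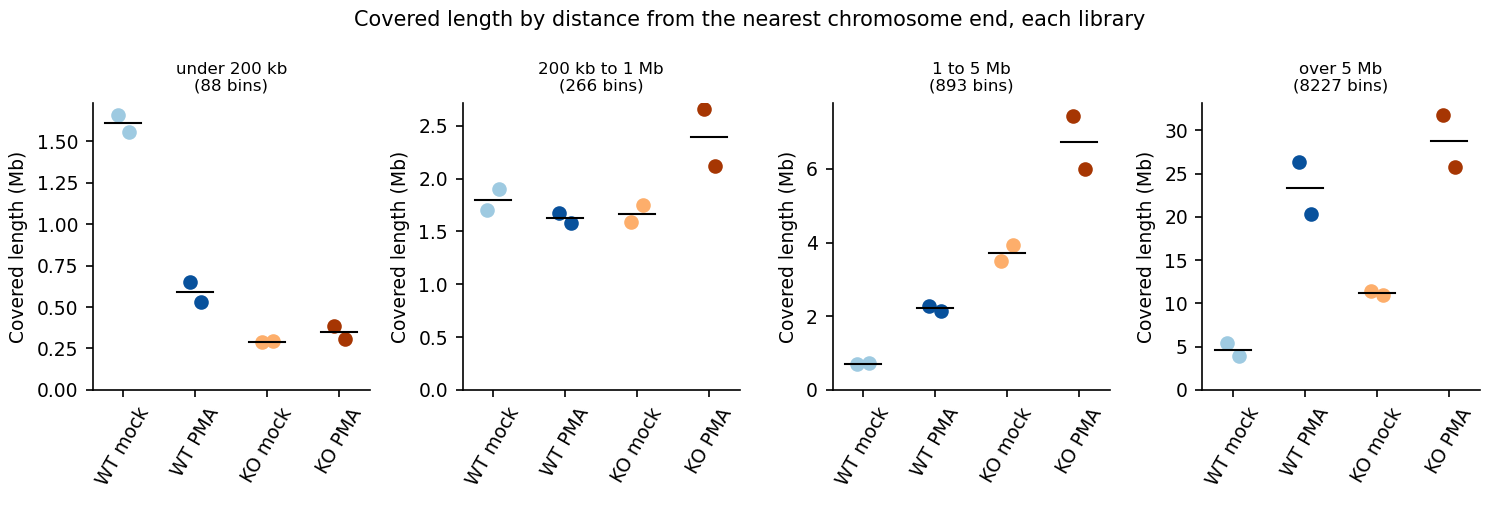
Covered length in Mb of each library (points; lines are group means, n = 2) in tested bins at 4 distances from the nearest chromosome end. Under 200 kb, WT mock (1.66 and 1.56 Mb) stands above every other group, and beyond 1 Mb the PMA libraries of both genotypes stand above their mock libraries.

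The largest differences outside the 2 mock classes were of this kind. On chromosome 11 the bin from 134800001 to 134900000 held 33.4 and 27.2 kb in WT mock and was listed at 0 in the other 6 libraries (difference 4.96). The chromosome 3 bin from 100001 to 200000 held 42.9 and 41.5 kb in WT mock and 1.0 kb in 1 WT PMA library (4.93), and on chromosome 2 the bin from 100001 to 200000 held 30.9 and 18.4 kb in WT mock and 0.5 kb in 1 KO mock library (4.34). These 3 bins passed the filter through the WT mock libraries in which they were high, with at most 1 further library covered, so no p-value is given. The chromosome 3 bin lost its call with 100 bp added in place of 1000 bp, and the chromosome 2 bin with regions of at least 6-fold. The lower bins outside these classes were WT gains, on chromosome 2 from 85200001 to 85300000 (24.5 and 14.9 kb in WT PMA, difference −4.11), on chromosome 10 from 35700001 to 35800000 (16.6 and 10.6 kb, −3.52) and on chromosome 1 from 222800001 to 222900000 (17.7 and 9.91 kb, −3.46). None of these 3 was called under all of the rescalings, and each was lost without either KO PMA library. The first was also lost without either WT mock library or WT PMA replicate 1, the second without any library except KO mock replicate 2, and the third without either KO mock library.

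Regions of the KO PMA libraries were longer in bins with a higher KO response. In KO PMA, 34.2% and 30.9% of the regions in higher bins were at least 1000 bp long, 16.9% and 15.1% in lower bins and 23.3% and 20.7% in bins that did not pass. In WT PMA the shares were 7.56% and 7.33% in higher bins and 17.02% and 14.1% in lower bins. Covered length chose the bins, so the length of regions is partly set by the choice. The authors' fold over input entered the choice only through the 2-fold minimum for calling. It had a median of 4.07 in higher, lower and other bins alike in KO PMA replicate 1 and of 4.26 in replicate 2. In bins called in both KO mock libraries it was 3.92 and 4.15 in higher and 4.07 and 4.26 in lower bins. With no mock coverage it was 4.75 and 5.665 in higher and 5.43 and 5.42 in lower bins. In WT PMA regions of lower bins the median fold was 5.70 and 5.84 in bins with no mock coverage, and 4.51 and 4.38 in bins called in both KO mock libraries. Bins of the same classes that did not pass had close values in WT PMA, 5.70 and 5.75, and 4.56 and 4.38. The input under these regions differed by class as well. In lower bins its median was 2.15 and 2.52 tags per 10 M per kb with no mock coverage. In lower bins called in both KO mock libraries it was 3.23 and 3.63. Why the fold differed by class was not tested.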

How the data were processed

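γH2AX ChIP-seq of K562 cells gave 8 region lists. CASAVA 1.4, BWA and HOMER were used on build hg19, per the submitters' processing notes. Regions were called by the authors library by library against the WT mock input, per the file headers: windows of 500 bp at a Poisson p of 0.001, at least 2-fold over input (p of 0.0001), were stitched into regions. The signal that the authors deposited counts a region's tags per 10 M, the deposited fold is the ratio to input tags at one depth, and the deposited score is HOMER's own.

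Covered length was binned (100 kb, chromosomes 1 to 22), and log2(covered bp + 1000) was tested with limma 3.58.1 (R 4.3.3, mean-variance trend, 1 fit of 4 groups, Benjamini-Hochberg over 9474 bins, two-sided); the contrast is (KO PMA − KO mock) − (WT PMA − WT mock). The log2 value understates changes of little-covered bins. limma was tested on simulated data. Python 3.11.15 did the rest. Named bins are the 6 largest passing differences per direction in each mock class (3 for other classes), at most 1 per 10 Mb. Bins and lists were chosen with earlier results of these data known. Long-arm ends are the last called position of a chromosome, and the short arms of 5 acrocentric chromosomes were not used as ends. Bins were not assigned to genes, since the gene table used here is on another build. Alternatives covered region strength, length, number and tag threshold, pseudocount, filters, bin width, scaling, block and each library left out.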

Additional observations from a re-analysis of the deposited data

Results flagged for a closer look

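Each result in this paragraph is one that passed the threshold in the test of the difference of PMA responses. Bins covered in both libraries of 1 group and in at most 1 further library passed the filter through that group. For them the test adds nothing. They include all the named bins with no mock coverage, the named higher bins of the other classes and the chromosome 1 bin at 222800001. The results comprise the 347 bins with a higher and 1202 with a lower response in KO, and the shares of chromosomes 2 (−1.02), 5 (−0.92), 8 (−0.64), 11 (0.46), 15 (−0.67) and 17 (0.79). The 6 named higher bins with no mock coverage differed by 2.94, 2.91, 2.10, 1.87, 1.80 and 1.75 on the log2 scale, and the 6 lower ones by −4.31, −3.04, −2.99, −2.98, −2.88 and −2.85. Among bins called in both KO mock libraries the higher ones differed by 4.07, 3.97, 3.62, 3.6, 3.45 and 3.33 and the lower ones by −4.81, −4.51, −4.29, −4.29, −4.23 and −4.17. The bins of the other classes differed by 4.96, 4.93 and 4.34, and by −4.11, −3.52 and −3.46.

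Outside chromosomes 1 to 22, the mitochondrial genome was called along nearly its whole length in both KO PMA libraries, 16.5 kb in each as 1 region (16.476 and 16.493 kb), at 3.29- and 3.39-fold over input. It was listed at 0 in all 4 mock libraries and in WT PMA replicate 1, and at 0.5 kb in WT PMA replicate 2. Mitochondrial DNA carries no histones.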

How the results depend on the processing

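Replicate numbers shared by the groups are not stated to pair libraries: deviations of same-numbered libraries correlated at −0.058 to 0.165 over bins. With the replicate block 1084 bins passed, 230 higher and 854 lower, of which 115 higher bins were called in both KO mock libraries, and no named bin turned its sign, while 3 of 30 lost the call; 8 chromosome shares passed. Below, the counts are of bins that passed (main: 1549, 347 higher, 1202 lower; no mock coverage 49 higher, 357 lower; called in both KO mock libraries 183 higher, 657 lower), and "no mock" and "KO mock" stand for those 2 classes. Their members were set anew in each setting from the bins, regions and libraries in use, so they can be other bins than in the main result.

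Without each library in turn the total ran from 823 to 1540, higher from 179 to 302, lower from 610 to 1238, no mock from 32 to 61 higher and 229 to 519 lower, KO mock from 54 to 167 higher and 349 to 602 lower, chromosome shares from 2 to 11, the whole-library difference from −0.67 to −0.33, and the class medians from −0.74 to −0.58 (no mock) and −0.61 to −0.49 (KO mock). At 6-fold over input 721 passed, 183 higher and 538 lower; no mock had 84 higher; KO mock had 13 higher and 160 lower with a median of −0.50; 14 shares passed, and the chromosome 11 bin at 64100001 turned to −0.62. With 1 tag threshold 730 were lower; no mock had 76 higher, 199 lower and a median of −0.42; the KO mock median was −0.51, and 3 shares passed. With equal numbers of regions 844 passed, 408 lower; no mock had 21 higher and 123 lower; KO mock had 225 lower and a median of −0.24; 14 shares passed, and the whole-library difference turned to 0.47. Keeping only regions of 1000 bp or more, 665 were higher and 651 lower; no mock had 277 higher and a median of −0.83; KO mock had 131 lower and its median turned to 0.53; 10 shares passed, and the whole-library difference turned to 0.16. Centred libraries gave 967, with 770 higher and 197 lower, no mock 14 lower, KO mock 446 higher and 147 lower. A pseudocount of 100 bp gave 193 higher, KO mock 55 higher, and medians of −2.58 (no mock) and −1.52 (KO mock); 5000 bp gave 697 higher, KO mock 518 higher, and medians of −0.19 and −0.15. With bins covered in at least 4 libraries 749 passed, 196 higher and 553 lower, no mock 0 higher and 5 lower, KO mock 412 lower. Bins of 50 kb gave 635 higher, no mock 142 higher and 565 lower, KO mock 283 higher; bins of 200 kb gave 160 higher, no mock 16 higher and 187 lower, KO mock 102 higher. With a mean covered length of at least 1000 bp, chosen after seeing the data, no mock had 4 higher and 54 lower and KO mock 301 higher. In covered length rather than share 13 chromosomes passed, and the difference of the share of chromosome 11 turned to −0.041. The cause of these changes was not tested. Of the 30 named bins, all kept their sign in every setting that gave a value, apart from the chromosome 11 bin at 64100001. All 30 kept the call with centred libraries and with 5000 bp, 15 with 100 bp, and 8 of 28 with a value at 6-fold. The tag threshold and 2 libraries per group limit what could be called. Where both libraries of a group held the same length, leaving 1 of them out did not change the difference. A call lost there came from the error of the fit and the adjustment alone.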

Other observations

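Chromosome X lay outside the tested bins and had 15.7 and 14.8 kb of covered length in WT mock, 36.7 and 31.8 kb in WT PMA, 49.96 and 63.1 kb in KO mock, and 224 and 168 kb in KO PMA. Unplaced contigs went the other way from the chromosomes in both genotypes, from 156 and 145 to 82.4 and 66.2 kb in WT and from 147 and 146 to 39.8 and 39.5 kb in KO. The decoy sequence held 68.8 and 91.6 kb in WT mock, 35.1 and 34.9 kb in WT PMA, 169 and 187 kb in KO mock, and 60.5 and 48.9 kb in KO PMA. In each of these 3 kinds of sequence the mock and PMA libraries of a genotype did not overlap, and the difference of responses was not tested.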
